A study of Mus musculus with 4 samples.

Results

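Lymphoid tissue inducer (LTi) cells are the branch of group 3 innate lymphoid cells (ILC3s) that is set apart by the genes Cd4, Ccr6, Cxcr5, Nrp1 and Batf3. The 5 genes were taken by name from a table of 12546 genes for CD93-positive and CD93-negative ILC3s and a table of 15242 genes for IL-17D KO and WT ILC3s, and each of them was present in both. All 4 samples were ILC3s of the mouse small intestine at steady state, sorted as live cells low for CD45, negative for CD3 and high for CD90.2, among other markers. CD93-positive and CD93-negative ILC3s were sorted from WT mice after a suspension had been kept for 12 h without stimulation. IL-17D KO ILC3s came from mice labelled Il17d-KO, deficient in the cytokine IL-17D, and WT ILC3s from mice labelled wild type. The labels of every library mention the culture step, but do not say whether the IL-17D KO and WT cells went through it. The strain, the age and the number of mice are also unstated there. There was 1 library in each group, so no difference below has a replicate check and none was tested.

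LTi cells gather at the sites of future lymph nodes and Peyer's patches, where their lymphotoxin and RANKL turn stromal cells into organisers that draw in lymphocytes. After birth, related LTi-like ILC3s sit in cryptopatches and isolated lymphoid follicles of the gut and make IL-22 and IL-17. They are usually told from ILC3s with natural cytotoxicity receptors (NCR-positive ILC3s), which share T-bet and killer receptors with ILC1s and NK cells. CCR6 is the receptor for CCL20, a chemokine of the epithelium above follicles. CXCR5 is the receptor for CXCL13, the chemokine of B cell follicles. CD4, the MHC class II co-receptor of helper T cells, is a surface marker of a share of mouse LTi cells. NRP1 is a co-receptor for semaphorins and VEGF, and BATF3 is a basic leucine zipper transcription factor best known for its role in cross-presenting dendritic cells. Fewer cells of a type and less RNA per cell cannot be told apart in these bulk samples.

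The 5 genes lie on different chromosomes. Coordinates are those of mm10 in the GENCODE M21 annotation, and all 5 are protein coding. Cd4 (ENSMUSG00000023274.14) occupies the minus strand of chromosome 6 at 124864692-124888221, and Ccr6 (ENSMUSG00000040899.14) the plus strand of chromosome 17 at 8236043-8257141. Cxcr5 (ENSMUSG00000047880.15) is found on the minus strand of chromosome 9 at 44511787-44561877. Nrp1 (ENSMUSG00000025810.9) covers chromosome 8 at 128358604-128503363 on the plus strand, and Batf3 (ENSMUSG00000026630.9) covers chromosome 1 at 191097847-191108945 on the plus strand. Their exons add up to 4032, 2320, 3332, 9785 and 1597 bases in the same order. Cxcr5 shares 110 exon bases with Bcl9l on the opposite strand, and Nrp1 holds the 80 bases of Mir1903. The sources used here do not say whether counting used strand, so reads in the bases shared with Bcl9l cannot be assigned to one gene.

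A start-site window was found for 3 of the 5 genes in the RefSeq promoter table (GRCm38.p6): Ccr6, Nrp1 and Batf3. The Ccr6 window is shown because it holds the full response element of the ROR family of nuclear receptors. It is the 250 bases before the first Ccr6 start, chr17:8235793-8236042 on the plus strand, with the element in capitals.
Ccr6: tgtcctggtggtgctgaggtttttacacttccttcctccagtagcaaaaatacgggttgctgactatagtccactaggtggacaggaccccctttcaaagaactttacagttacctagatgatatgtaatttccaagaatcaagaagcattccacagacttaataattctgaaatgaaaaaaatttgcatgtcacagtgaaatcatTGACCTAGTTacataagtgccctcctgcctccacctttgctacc
The element searched, on either strand, was AGGTCA with AANT directly before it, and the window holds its reverse complement, from 44 to 35 bases before the start. Of 32851 such windows in the table, 0.177% hold this element. Its core AGGTCA, which the Ccr6 match contains, is found in 14.02%, among them that of Nrp1, and CACGTG, an E-box, is in 6.02%, among them that of Batf3. TGANTCA, the site of AP-1 and BATF proteins, and TGTGGT, the core of RUNX sites, were in none of these 250-base windows of the 3 genes, and in 6.75% and 14.05% of all windows. The windows also differ in base composition, with 41.2% G and C for this Ccr6 window, 64.4% for Nrp1 and 76.0% for Batf3, against a median of 52.4% over all windows. The table also holds a window for a second Ccr6 start, chr17:8242276-8242525 on the plus strand, with 46.0% G and C and a match to none of these motifs. These matches describe the letters of the windows. Binding was not measured.

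The values are FPKM, fragments per kilobase of gene, scaled to the reads of the library, as the authors deposited them. Where the length of the gene was known, the number of reads behind a value was recovered from the FPKM and that length. Totals behind the scaling were 11712846 for CD93-positive, 11790580 for CD93-negative, 27002581 for IL-17D KO and 26087274 for WT ILC3s. Intervals in parentheses are 95% intervals from these reads. They cover counting error only, as PCR copies of a molecule cannot be told from separate molecules. The tables were made with different gene sets, so levels were compared within a table. A difference is log2 of FPKM + 1 in one library minus the same in the other, which understates the difference of low genes. A gene counted as measured if 1 of the libraries of a pair gave it an FPKM of 1 or more, and a difference of at least 1 in either direction is called 2-fold.

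The first comparison asks whether ILC3s with the surface glycoprotein CD93, which has been described as a binding partner of IL-17D, differ from ILC3s without it. All 5 LTi marker genes passed the 2-fold limit, and each was higher in CD93-positive ILC3s. Of the 10117 measured genes, 4.43% were 2-fold apart, with 2.49% higher. Of the genes past the limit 56.2% were higher in CD93-positive ILC3s, or 36.9% with each library brought to the mean FPKM sum of the pair. Scaling both to a common, larger sum, which also lowers the weight of the pseudocount and lets 11831 genes pass the filter, gave 28.4%. All 5 marker genes stayed higher under both. The members were chosen with earlier results of these libraries known, so this count is a description. Their differences ran between 1.38 and 2.82 with a median of 1.82, beside a median of 0.04 over all measured genes.

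Cd4 had an FPKM of 27.3 in CD93-positive, against 3.01 in CD93-negative ILC3s, from 1288 reads in CD93-positive, against 143 in CD93-negative ILC3s. It was 9.07-fold higher (7.62 to 10.9) and took the second place from the top among the 10117 signed differences, CD93-positive minus CD93-negative. By size, some downward differences were larger, among them those of Ly6d (-3.71) and Klrb1c (-3.25). Ccr6 took the third place from the top, with an FPKM of 28.8 in CD93-positive, against 3.47 in CD93-negative ILC3s. It had 783 reads in CD93-positive, against 95 in CD93-negative ILC3s. Its ratio was 8.30 (6.70 to 10.4). The place above them was held by Tgm2, a transglutaminase gene. In the CD93-positive library the counting intervals of Cd4 and Ccr6 overlapped, at 25.8 to 28.8 and 26.8 to 30.9, and so did those of their ratios.

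Cxcr5, the other chemokine receptor gene of the set, had an FPKM of 11.7 in CD93-positive, against 3.16 in CD93-negative ILC3s. The ratio was 3.72 (3.04 to 4.57) from 458 reads in CD93-positive, against 124 in CD93-negative ILC3s. Its interval did not overlap that of Ccr6. Bcl9l, with which it shares exon bases, had 6.40 in CD93-positive, against 6.08 in CD93-negative ILC3s, a difference of 0.07. Nrp1 had an FPKM of 8.18 in CD93-positive, against 2.52 in CD93-negative ILC3s. The ratio was 3.24 (2.84 to 3.71) from 938 reads in CD93-positive, against 291 in CD93-negative ILC3s. It had the lowest ratio of the 5. Batf3 had 6.84 in CD93-positive, against 1.22 in CD93-negative ILC3s, and its 128 reads in CD93-positive, against 23 in CD93-negative ILC3s gave the widest interval, 5.60-fold with limits of 3.57 and 9.15. With a pseudocount of 5 in place of 1, the differences of Nrp1 (0.81) and Batf3 (0.93) lay under the 2-fold limit, while Cd4, Ccr6 and Cxcr5 stayed above it.

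**Figure D1:**
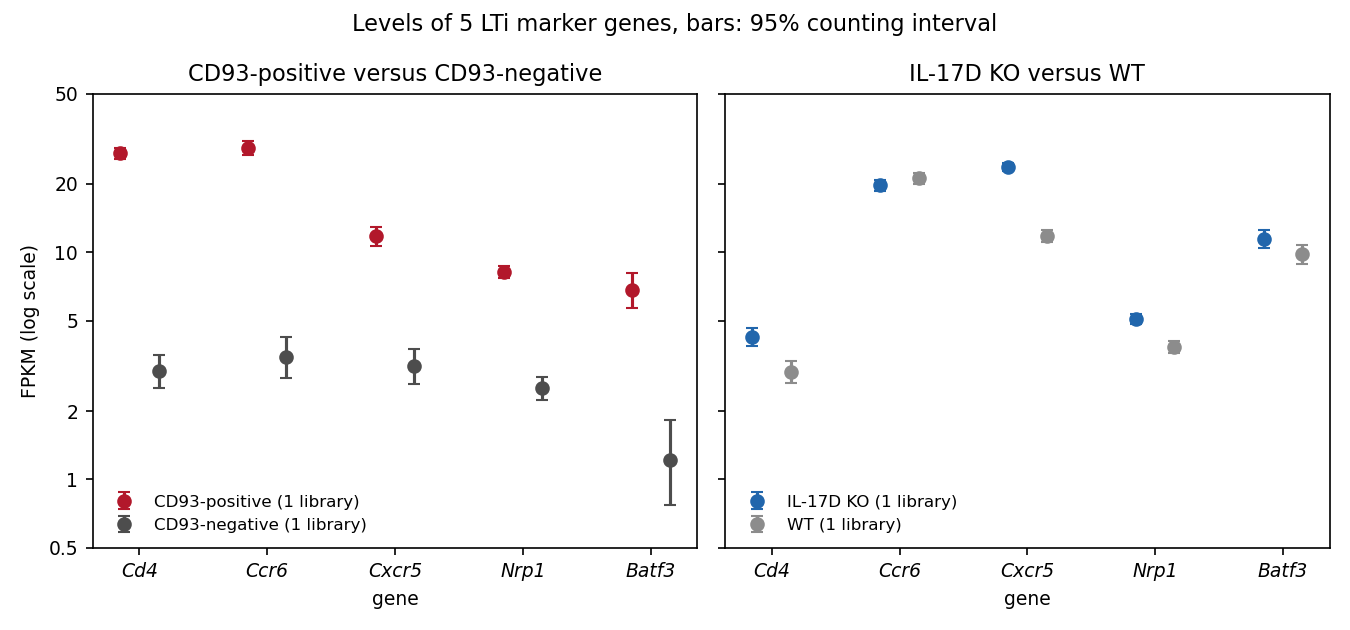
FPKM (log axis) of the 5 LTi marker genes in the 4 libraries, with 95% counting intervals as bars and 1 point per library; levels are comparable within a panel only. The CD93-positive points lie above the CD93-negative ones for every gene. IL-17D KO and WT points stand furthest apart for Cxcr5, at 23.7 in IL-17D KO and 11.8 in WT ILC3s. In that pair the bars of Cd4 and of Nrp1 do not overlap either.

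The order of the levels differed between these libraries. In CD93-positive ILC3s Ccr6 and Cd4 stood highest, followed by Cxcr5, with Nrp1 and Batf3 lowest, and the intervals of Nrp1 and Batf3 overlapped. In CD93-negative ILC3s the levels lay closer together. Ccr6, Cxcr5, Cd4 and Nrp1 had 3.47, 3.16, 3.01 and 2.52, each overlapping the next in that order, and Batf3 stood apart below them with 1.22. The highest level was 4.21 times the lowest in CD93-positive and 2.84 times in CD93-negative ILC3s.

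Of 15 other LTi-like genes, all measured, 3 passed the limit upward in CD93-positive ILC3s and 0 downward, with a median difference of 0.27. All 3 encode ligands of the TNF superfamily. The upward count of this list was 5 with a pseudocount of 0.1 and 1 with one of 5. Tnfsf11, which encodes RANKL, had an FPKM of 291 in CD93-positive, against 61.5 in CD93-negative ILC3s (4.74-fold). Tnfsf4, which encodes OX40L, had 31.0 in CD93-positive, against 14.3 in CD93-negative ILC3s. Lta, the lymphotoxin alpha gene, had 18.3 in CD93-positive, against 6.81 in CD93-negative ILC3s. Ltb, whose product pairs with lymphotoxin alpha, ran the other way under the limit, at 75.4 in CD93-positive, against 114 in CD93-negative ILC3s. The cytokine receptor genes Il7r and Kit differed by -0.02 and -0.13. Il1r1, the IL-1 receptor gene, had 47.4 in CD93-positive, against 23.4 in CD93-negative ILC3s, just under the limit at 0.99.

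Of 15 measured genes of NCR-positive ILC3s and ILC1s, 9 passed the limit downward in CD93-positive ILC3s and 0 upward, where 1.94% of all measured genes passed it downward. Their median difference was -1.44, and it was negative under every scaling and pseudocount tried (-1.65 to -1.25). Tbx21, the T-bet gene, had an FPKM of 7.96 in CD93-positive, against 25.4 in CD93-negative ILC3s. The receptor gene Cxcr3 had 21.8 in CD93-positive, against 60.9 in CD93-negative ILC3s. Ifng, the interferon gamma gene, had 5.54 in CD93-positive, against 5.83 in CD93-negative ILC3s, and the ratio of its reads had an interval that included 1. Ccr6 had 132% of the Cxcr3 level in CD93-positive, against 5.70% in CD93-negative ILC3s.

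Genes of the chemokine receptor list, which also holds the lipid receptor genes Gpr183 and S1pr1, did not go one way. Of 15 measured, 4 passed the limit upward in CD93-positive ILC3s and 2 downward, with a median difference of -0.18. Ccr6 and Cxcr5 were joined among the higher by Ccr1, a receptor of inflammatory chemokines (30.8 in CD93-positive, against 11.4 in CD93-negative ILC3s), and by Ackr3, an atypical receptor for CXCL12 (54.7 in CD93-positive, against 25.9 in CD93-negative ILC3s). The lower ones were Cxcr3 and Ccr9, the receptor for the gut chemokine CCL25 (3.64 in CD93-positive, against 13.5 in CD93-negative ILC3s). Ccr7, which guides cells to lymph nodes, had 19.2 in CD93-positive, against 27.0 in CD93-negative ILC3s.

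Among genes that work with NRP1, Plxnd1 and Plxna1, plexin receptors for semaphorins, were higher in CD93-positive ILC3s. Plxnd1 had an FPKM of 31.5 in CD93-positive, against 9.75 in CD93-negative ILC3s (3.23-fold, 2.99 to 3.49). Plxna1 had 7.36 in CD93-positive, against 2.17 in CD93-negative ILC3s (3.38-fold, 2.92 to 3.94). The semaphorin gene Sema7a was lower, at 1.55 in CD93-positive, against 4.55 in CD93-negative ILC3s. These were the 3 genes past the limit among 7 measured relatives and co-receptors of NRP1, with a median of 0.38, or 0.30 over 6 with each library brought to the mean FPKM sum of the pair. Scaling both to a common, larger sum, which also enlarges every value, let 13 pass the filter, with a median of -0.22. Nrp2 and the VEGF receptor genes Kdr, Flt1 and Flt4 stayed under an FPKM of 1 in both libraries.

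Of the genes for ligands, 3 of 14 were measured. Vegfa, a ligand of NRP1, had 719 in CD93-positive, against 188 in CD93-negative ILC3s, while Il16, a ligand of CD4, had 2.79 in CD93-positive, against 4.10 in CD93-negative ILC3s, and Vegfb differed by 0.35. Ccl20, the ligand of CCR6, stayed under an FPKM of 1, at 0.601 in CD93-positive, against 0.418 in CD93-negative ILC3s.

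Of 12 measured relatives and partners of BATF3, 0 were 2-fold apart in either direction. Their differences ran from -0.85 to 0.77 with a median of -0.05, 6 of them positive and 6 negative. Batf, a relative that acts in lymphocytes, had an FPKM of 38.3 in CD93-positive, against 22.1 in CD93-negative ILC3s. Batf3 had 17.9% of the Batf level in CD93-positive, against 5.53% in CD93-negative ILC3s. Irf8, which pairs with BATF3 in dendritic cells, had 24.0 in CD93-positive, against 16.2 in CD93-negative ILC3s, and Jun, a dimer partner, had 224 in CD93-positive, against 172 in CD93-negative ILC3s. The lowest differences were those of Fos, the AP-1 gene, with 15.0 in CD93-positive, against 27.8 in CD93-negative ILC3s, and of Atf3, with 24.2 in CD93-positive, against 42.6 in CD93-negative ILC3s.

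Of 10 measured relatives and regulators of CD4, 0 were at least 2-fold higher and 1 was lower. That was Lck, the kinase that binds the CD4 tail, with an FPKM of 23.1 in CD93-positive, against 53.2 in CD93-negative ILC3s. Lag3, a relative of Cd4 that lies 16.1 kb from it on chromosome 6, had 2.15 in CD93-positive, against 4.71 in CD93-negative ILC3s. Gpr162, 0.709 kb away on the other side, had 16.4 in CD93-positive, against 8.22 in CD93-negative ILC3s, and P3h3 beyond it 3.11 in CD93-positive, against 2.16 in CD93-negative ILC3s. The difference of Cd4 was larger than those of all 3 neighbours, and Lag3 ran the other way. Zbtb7b, which encodes the helper T cell factor ThPOK, had 41.7 in CD93-positive, against 28.0 in CD93-negative ILC3s. Runx3 had 197 in CD93-positive, against 150 in CD93-negative ILC3s.

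**Figure D2:**
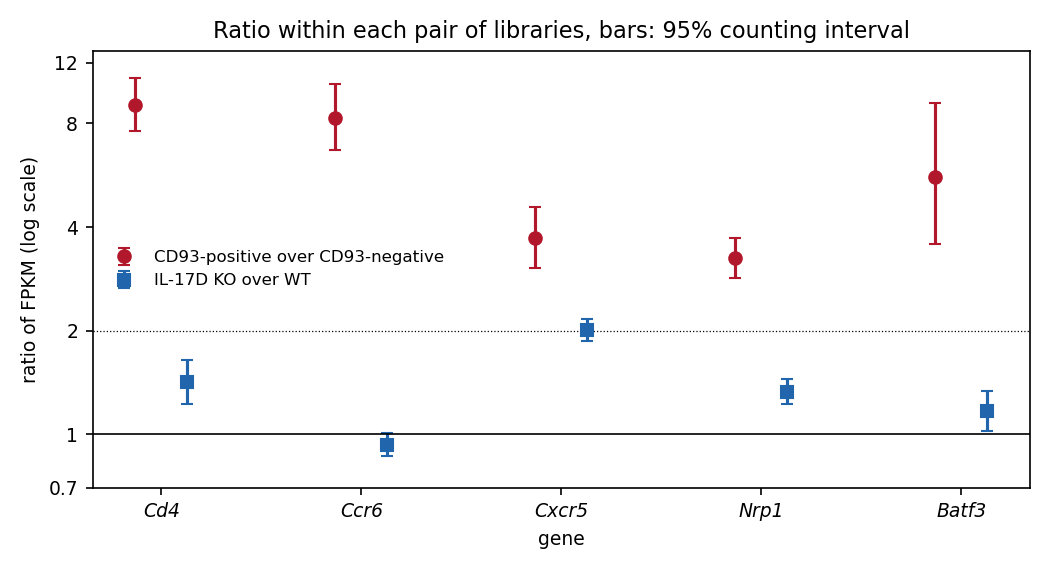
Ratio of FPKM (log axis) of each LTi marker gene within each pair of libraries, with 95% counting intervals as bars, a line at 1 and a dotted line at 2. All ratios of CD93-positive over CD93-negative lie between 3.24 and 9.07, and those of IL-17D KO over WT between 0.935 and 2.01.

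Each of the 5 genes is also used by other cells of the gut, so markers of these cells were read in the same libraries. Of 14 T cell genes, 7 were tabulated for the CD93 pair, 5 were measured, and 2 were at least 2-fold lower and 0 higher, with a median of -0.96. The 7 summed to an FPKM of 20.5 in CD93-positive, against 24.7 in CD93-negative ILC3s, of which Lat, a signalling adaptor, gave 17.4 in CD93-positive, against 13.5 in CD93-negative ILC3s. Cd3d had 3 reads in CD93-positive, against 40 in CD93-negative ILC3s, and Cd3g had 43 in CD93-positive, against 180 in CD93-negative ILC3s. Cd3e, another chain of the receptor complex, had 1.07 in CD93-positive, against 3.03 in CD93-negative ILC3s, so the ratio of Cd4 to Cd3e was 25.6 in CD93-positive, against 0.991 in CD93-negative ILC3s. The 3 Cd3 genes and Cd4 ran in opposite directions in this pair.

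Treg and Tfh genes had 1 of 5 measured members higher and 1 lower. Pdcd1, which encodes PD-1, had an FPKM of 318 in CD93-positive, against 60.9 in CD93-negative ILC3s, and Ctla4 had 27.7 in CD93-positive, against 86.5 in CD93-negative ILC3s. Foxp3 stayed under an FPKM of 1. The 6 tabulated genes summed to 539 in CD93-positive, against 343 in CD93-negative ILC3s.

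Of 9 B cell genes, 4 were tabulated and 2 measured. They summed to 27.5 in CD93-positive, against 9.24 in CD93-negative ILC3s, nearly all from Blk, a kinase of B cells that some innate-like lymphocytes also use (24.6 in CD93-positive, against 3.18 in CD93-negative ILC3s), while Cd22 and Cr2 stayed under an FPKM of 1. Cd79b, the other measured one, ran the other way, with 2.27 in CD93-positive, against 4.98 in CD93-negative ILC3s. Of 12 dendritic cell genes, 9 were tabulated and 5 measured, and they summed to 915 in CD93-positive, against 711 in CD93-negative ILC3s, of which Bst2 gave 899 in CD93-positive, against 674 in CD93-negative ILC3s. Xcr1 had 10.3 in CD93-positive, against 14.9 in CD93-negative ILC3s, and Zbtb46 had 2.11 in CD93-positive, against 3.33 in CD93-negative ILC3s. Tcf4 had 3.09 in CD93-positive, against 2.48 in CD93-negative ILC3s. Itgax, Flt3, Naaa and Wdfy4 stayed under an FPKM of 1, and Ly6d was lower, with 1 read in CD93-positive, against 119 in CD93-negative ILC3s. All 10 macrophage and monocyte genes were tabulated, 6 were measured and 0 were 2-fold apart. All 6 differences were positive, with a median of 0.51 and C1qa, a complement gene, at 0.99, and the 10 genes summed to 43.6 in CD93-positive, against 29.1 in CD93-negative ILC3s. Of 9 endothelial genes, 8 were tabulated and 2 measured, and they summed to 76.1 in CD93-positive, against 63.1 in CD93-negative ILC3s, of which Pecam1 gave 74.4 in CD93-positive, against 59.4 in CD93-negative ILC3s. Cdh5, the other measured one, had 0.569 in CD93-positive, against 1.67 in CD93-negative ILC3s. Of 10 epithelial genes, 6 were tabulated and 5 measured, with 1 lower, Epcam (1.21 in CD93-positive, against 4.91 in CD93-negative ILC3s), and a sum of 23.9 in CD93-positive, against 42.8 in CD93-negative ILC3s. None of the tabulated markers of these cell types was at 0 in either library. The part of any such cells in the values of the 5 marker genes was not tested.

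The second comparison sets ILC3s of mice deficient in IL-17D beside those of WT mice. Of the 5 LTi marker genes, 0 were at least 2-fold higher or lower in IL-17D KO ILC3s, where 29.3% of the 12376 measured genes were 2-fold apart. The KO library was the higher one for 16.6% of the measured genes and the lower one for 12.7%. The members' median difference was 0.34, beside 0.01 over all measured genes, and 4 of the 5 differences were positive.

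Cxcr5 differed most. It had an FPKM of 23.7 in IL-17D KO and 11.8 in WT ILC3s, from 2133 reads in IL-17D KO and 1027 in WT ILC3s. The ratio of FPKM was 2.01 (1.86 to 2.16), while its difference with the pseudocount, 0.95, lay just under the limit. With the libraries scaled to a common sum it was 1.14, past the limit. Bcl9l had an FPKM of 0.171 in IL-17D KO and was listed at 0 in WT ILC3s.

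Cd4 had an FPKM of 4.23 in IL-17D KO and 2.98 in WT ILC3s (1.42-fold, 1.23 to 1.65), from 461 reads in IL-17D KO and 313 in WT ILC3s. Nrp1 had 5.09 in IL-17D KO and 3.83 in WT ILC3s (1.33-fold, 1.22 to 1.45), and Batf3 had 11.5 in IL-17D KO and 9.79 in WT ILC3s (1.17-fold, 1.03 to 1.34). These intervals lay above 1 and overlapped between Cd4 and Nrp1 and between Nrp1 and Batf3. Ccr6 had an FPKM of 19.8 in IL-17D KO and 21.1 in WT ILC3s, a ratio of 0.935 with an interval that included 1 (0.864 to 1.012). Its reads did not come out whole in this pair, so about 1238 reads in IL-17D KO and 1279 in WT ILC3s stand behind that interval. The sign of the Ccr6 difference, -0.09, turned with a common sum (0.07).

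In WT ILC3s the levels stood apart in the order Ccr6, Cxcr5, Batf3, Nrp1 and Cd4. In IL-17D KO ILC3s Cxcr5 stood above Ccr6, and the other 3 kept their places. No neighbours in either order had overlapping intervals.

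**Figure D3:**
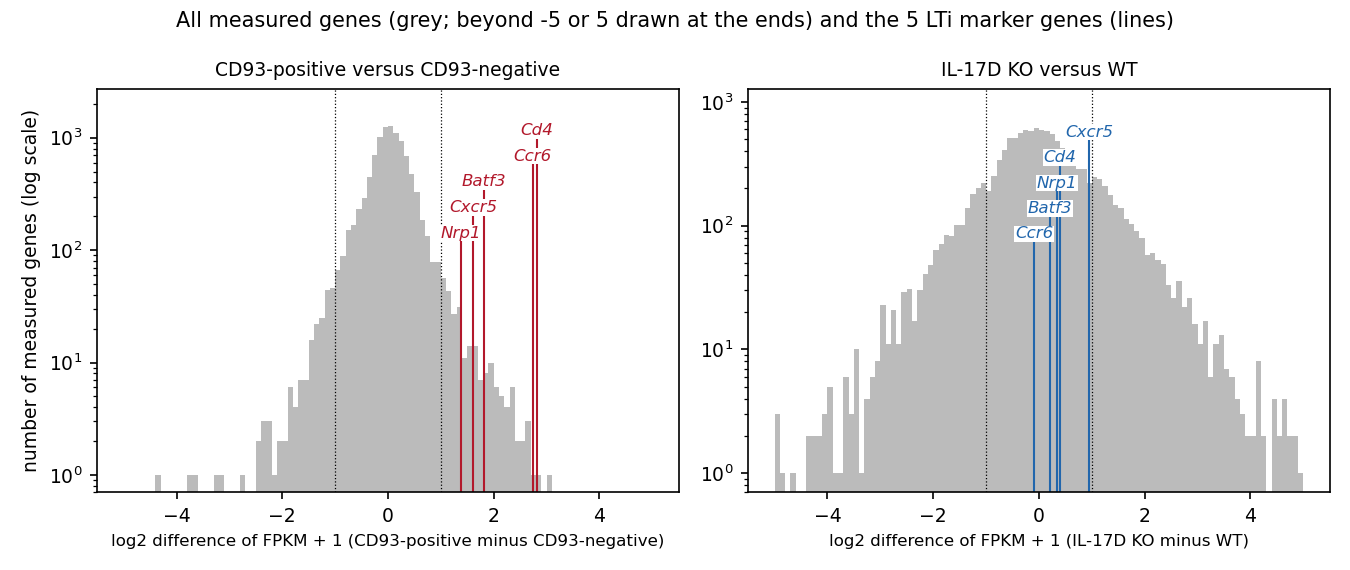
Number of measured genes (log axis) by log2 difference of FPKM + 1 in each pair, with lines at the 5 LTi marker genes and dotted lines at the 2-fold limits. The 5 lines stand between 1.38 and 2.82 in the CD93 pair and between -0.09 and 0.95 in the IL-17D KO and WT pair, where the spread of all genes is wider.

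Of 14 measured genes of the other LTi-like list, 1 was at least 2-fold higher in IL-17D KO ILC3s and 0 were lower, with a median of -0.02 that turned positive with a common sum (0.15). It was Lta, with an FPKM of 20.9 in IL-17D KO and 5.74 in WT ILC3s (3.64-fold, 3.12 to 4.26). Tnfsf11 had 104 in IL-17D KO and 161 in WT ILC3s. Of 15 genes of NCR-positive ILC3s and ILC1s, 4 were higher and 0 lower, among them Klrb1c, the NK1.1 gene (2360 reads in IL-17D KO and 775 in WT ILC3s). Of 13 measured genes of the chemokine receptor list, which include Gpr183, 2 were higher in IL-17D KO ILC3s. Over all measured genes of this pair, 16.6% were higher and 12.7% lower, so the upward share of this list is near that of all genes. The 2 were Ccr8 (32.5 in IL-17D KO and 8.16 in WT ILC3s) and Ccr9 (11.6 in IL-17D KO and 3.87 in WT ILC3s). Xcr1, a receptor of dendritic cells, was lower, with 1 read in IL-17D KO and 200 in WT ILC3s.

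Ligand genes were sparse in this pair. Ccl20, the ligand of CCR6, had 0 reads in IL-17D KO and 186 in WT ILC3s, at least 64.2-fold lower against a floor of 3 reads in the KO library. Cxcl13, the ligand of CXCR5, had 0 reads in IL-17D KO and 24 in WT ILC3s and stayed under an FPKM of 1. Vegfa had an FPKM of 5.66 in IL-17D KO and 4.24 in WT ILC3s, Vegfb had 0 in IL-17D KO and 1.34 in WT ILC3s, and Pgf had 2.73 in IL-17D KO and 0 in WT ILC3s. Of 5 measured ligand genes, 1 was higher and 2 were lower. Of 4 measured NRP1 relatives, Gipc1, which binds the NRP1 tail, was higher (305 reads in IL-17D KO and 1 in WT ILC3s) and Plxnc1 was lower (0 reads in IL-17D KO and 283 in WT ILC3s). Of 13 BATF3 relatives, 0 were higher and 1 was lower, Fosl1 (0 reads in IL-17D KO and 81 in WT ILC3s), and Batf had 74.5 in IL-17D KO and 84.3 in WT ILC3s. Of 10 CD4 relatives and regulators, 2 were higher, Gata3 (118 in IL-17D KO and 55.6 in WT ILC3s) and Cd8b1 (2.87 in IL-17D KO and 0.879 in WT ILC3s), and 0 lower. The counts of these small lists stand beside 16.6% of all measured genes higher and 12.7% lower. The LTi marker genes themselves had between 313 and 2133 reads in the libraries of this pair.

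Several lists of other cells had higher values in the KO library, where 16.6% of all measured genes were 2-fold higher. All 14 T cell genes were measured, and 10 were at least 2-fold higher in IL-17D KO ILC3s and 0 lower, with a median of 1.04. They summed to an FPKM of 1360 in IL-17D KO and 920 in WT ILC3s, and none was at 0. Most of it came from Trbc1 (532 in IL-17D KO and 416 in WT ILC3s) and Trbc2 (469 in IL-17D KO and 335 in WT ILC3s), both under the limit. Trac had 177 in IL-17D KO and 86.7 in WT ILC3s. Cd8a ran the other way under the limit, with 0.631 in IL-17D KO and 1.47 in WT ILC3s. Cd4 had 10.6% of the Cd3d level in IL-17D KO and 15.7% in WT ILC3s, and 11.4% of the Cd3g level in IL-17D KO and 12.3% in WT ILC3s. The ratio of Cd4 to Cd3e was 1.35 in IL-17D KO and 3.82 in WT ILC3s. Of 9 B cell genes, 4 were tabulated, and all 4 were measured. Of these, 2 were higher, Ighm (58.6 in IL-17D KO and 13.8 in WT ILC3s) and Cd79a (2.01 in IL-17D KO and 0.0789 in WT ILC3s), and 0 lower. Cd79b had 31.5 in IL-17D KO and 30.4 in WT ILC3s. The 4 genes summed to 95.8 in IL-17D KO and 47.1 in WT ILC3s, and none was at 0. B cells and follicular T cells use CXCR5, and their part in the Cxcr5 values was not tested.

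Of 10 macrophage and monocyte genes, 5 were tabulated, and all 5 were measured and higher in IL-17D KO ILC3s. Over all measured genes, 16.6% were 2-fold higher there. Adgre1, Csf1r, Mertk, C1qa and Mrc1 were not tabulated. The 5 summed to 67.4 in IL-17D KO and 12.0 in WT, with none at 0 and Lyz2 at 46.4 in IL-17D KO and 10.9 in WT ILC3s. Of 10 epithelial genes, 6 were tabulated and 5 measured, and 4 were higher. The 6 summed to 176 in IL-17D KO and 48.8 in WT, and Cdh1 was at 0 in the KO library. The 6 tabulated dendritic cell genes summed to 87.2 in IL-17D KO and 89.4 in WT ILC3s, with 2 lower and 0 higher. The 6 tabulated Treg and Tfh genes summed to 174 in IL-17D KO and 213 in WT, with 1 of 5 measured higher, Il21, which was at 0 in WT. The 2 tabulated endothelial genes summed to 17.4 in IL-17D KO and 12.0 in WT ILC3s, with 0 past the limit. Outside these lists, the 5 highest signed differences, IL-17D KO minus WT, were those of pancreatic enzyme genes, a group seen after the values. Rnase1 had an FPKM of 303 in IL-17D KO and 0.0386 in WT ILC3s, and Cela2a had 240 in IL-17D KO and was listed at 0 in WT ILC3s. The other 3 were the near-identical amylase copies Amy2a1, Amy2a2 and Amy2a3, between which reads may be split. Whether cells of these kinds contributed to the values of the 5 marker genes was not tested.

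**Figure D4:**
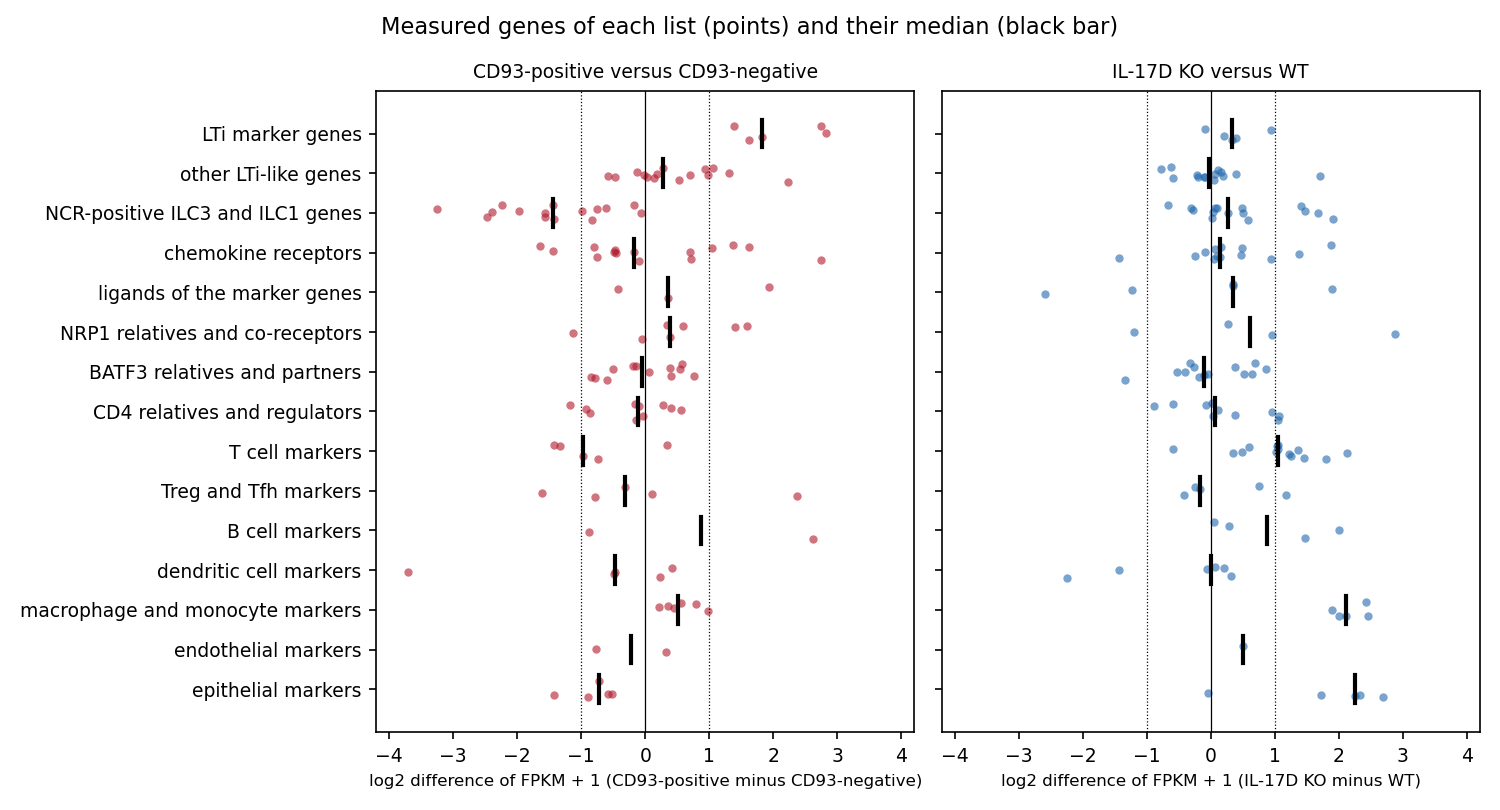
Log2 difference of FPKM + 1 for each measured gene (points) of the LTi marker genes and 14 other lists, with the median of each list as a black bar and dotted lines at the 2-fold limits. In the CD93 pair the LTi marker genes (median 1.82) and the genes of NCR-positive ILC3s and ILC1s (median -1.44) lie on opposite sides, and in the IL-17D KO and WT pair T cell genes (median 1.04) lie to the right of the LTi marker genes (median 0.34).

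The pairs share no library, and the marker genes differed unlike in them. Cd4 and Ccr6, alike in the CD93 pair at 2.82 and 2.74, had differences of 0.40 and -0.09 in the IL-17D KO and WT pair. Cxcr5 had a difference of 1.62 in the CD93 pair and of 0.95, just under the 2-fold limit, in the IL-17D KO and WT pair. The difference between the comparisons was not tested.

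Among 3937 named genes that reached an FPKM of 5 in both pairs, those with the most similar pair of differences over the 4 libraries were found for each marker gene. Nearest to Cd4 were Ccr6, Pdcd1 and the chemokine gene Cx3cl1, at distances of 0.50, 0.57 and 0.62 on the log2 scale. Nearest to Ccr6 among these candidates were Plaur, the urokinase receptor gene (0.38), Cx3cl1 (0.40) and Il22 (0.60). Cd4, at 0.50 from Ccr6, was no candidate, as it stayed under an FPKM of 5 in IL-17D KO and WT ILC3s. Il22, a main product of LTi-like ILC3s, had an FPKM of 7934 in CD93-positive, against 1655 in CD93-negative ILC3s, and 11771 in IL-17D KO and 16102 in WT ILC3s. Nearest to Cxcr5 were Coro2b, a coronin gene, Dhrs3, a retinal reductase gene, and Cnnm4, at 0.19, 0.31 and 0.39. Dhrs3 had 44.9 in CD93-positive, against 17.2 in CD93-negative ILC3s, and 215 in IL-17D KO and 103 in WT ILC3s. Nearest to Nrp1 were Hmgn3, Anp32a and Acot7, at 0.06, 0.08 and 0.09. Nearest to Batf3 were the survival gene Bcl2 (0.15), Vegfa (0.18) and the receptor tyrosine kinase gene Ret (0.27). Bcl2 had 23.1 in CD93-positive, against 6.52 in CD93-negative ILC3s, and 9.12 in IL-17D KO and 8.13 in WT ILC3s. With 1 library per group and 2 differences per gene, this likeness is a description.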

How the data were processed

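RNA of 4 libraries of mouse small intestinal ILC3s, 1 per group, was read on a BGISEQ-500 instrument, per the series' design text. The FPKM values were computed and deposited by the authors. The submitters' processing notes name Bowtie2, featureCounts (Subread), edgeR, DESeq2 and build mm10. How they were combined, and with which annotation, is not stated there. Reads were recovered as FPKM times union exon length in GENCODE M21, for values above 0 of genes with a length there. These numbered 12343 in CD93-positive, 12397 in CD93-negative, 10243 in IL-17D KO and 10319 in WT ILC3s. Recovered reads were whole within 0.02 reads for 91.9% to 98.2% of them. This step was tested on simulated data. Intervals of ratios are exact Clopper-Pearson and those of levels exact Poisson intervals, at 95%. With 1 library per group no test and no p-value was possible. The members, the 14 lists and the promoter motifs were chosen with earlier results of these data known. Genes of the lists were named when past 2-fold or abundant in their list, with others given for their role or their place beside a member, chosen after their values were seen. The 3 genes nearest each member follow a fixed distance rule. Other pseudocounts (0.1 and 5), filters, a 3-fold limit and scalings were tried. Python 3.11.15 with scipy 1.17.1 was used. The targeted gene of the knockout and some list genes are not reported here, and those list genes were left out of every list count.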

Additional observations from a re-analysis of the deposited data

How the results depend on the processing

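All 5 LTi marker genes stayed higher in CD93-positive ILC3s under every pseudocount and scaling tried, and differences of Cd4 ran between 2.01 and 3.14, of Ccr6 between 2.00 and 3.02, of Cxcr5 between 1.04 and 1.86, of Nrp1 between 0.81 and 1.66 and of Batf3 between 0.93 and 2.39. With a pseudocount of 5, 3 members were 2-fold apart, all 3 higher. In IL-17D KO and WT ILC3s the differences ran between 0.21 and 0.59 for Cd4, -0.10 and 0.07 for Ccr6, 0.77 and 1.14 for Cxcr5, 0.19 and 0.52 for Nrp1 and 0.16 and 0.38 for Batf3. Here 1 member, Cxcr5, was 2-fold apart and higher with a common sum and with the mean of the sums, a scaling chosen after seeing the data. The ratios of members moved by less than their counting intervals with reads scaled by read sums. Counts over all genes of the CD93 pair (448 apart, 252 higher, 196 lower) became 783, 391 and 392 with a pseudocount of 0.1, 169, 109 and 60 with one of 5, and 110, 73 and 37 at 3-fold. With an FPKM of at least 5 there were 127 lower, with a common sum 1022 apart and 732 lower, and with the mean of the sums 296 lower. Of the genes past 2-fold, 56.2% were higher as deposited, 36.9% with the mean of the sums (median of all genes -0.12) and 28.4% with a common sum (median -0.15), which also weakens the pseudocount and the filter. The listed genes 2-fold apart numbered 27, with 41 at a pseudocount of 0.1, 42 under a common sum and 13 at 3-fold. In the IL-17D KO and WT pair, 3627 genes apart, 2058 higher and 1569 lower became 821, 499 and 322 with a pseudocount of 5, 1519, 908 and 611 with an FPKM of at least 5, and 1556, 920 and 636 at 3-fold. The listed genes apart numbered 38, with 16, 23 and 20 under these settings. A common sum moved the median of all genes to 0.17. The cause of these moves was not tested. No paired analysis was possible because each group had 1 library. Depth limits Batf3 most, with 23 reads in CD93-negative ILC3s.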
